A study of Mus musculus with 24 samples.

Results

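The bone morphogenetic protein (BMP) pathway and the inhibitor of DNA binding (ID) genes it controls were followed through a glucocorticoid treatment of embryonic mouse neural progenitor cells. The set held 10 genes out of 38920 gene entries: the ID genes Id1, Id2, Id3 and Id4, the ligands Bmp4 and Bmp7, the receptor Bmpr1a, and the inhibitors Smad6, Smad7 and Bambi. They were taken by gene symbol from the 4 deposited tables, and each table held all 10. The cells had been dissociated from hypothalamus or cortex of male or female mouse embryos at day 14.5, grown as floating neurospheres to the third passage, and collected after 4 h. They received either dexamethasone (dex), a synthetic glucocorticoid, at 100 nM or the same volume of its ethanol vehicle (EtOH). The 8 groups were male hypothalamus dex and EtOH, female hypothalamus dex and EtOH, male cortex dex and EtOH, and female cortex dex and EtOH, with 3 biological replicates each. The study was set up to compare the dexamethasone response between the sexes in both regions. The labels do not say whether a replicate came from 1 embryo, a litter or a pool, so a p-value here reflects how far these libraries spread, which may be technical.

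BMP ligands bind a complex of type I and type II serine/threonine kinase receptors. The type I receptor phosphorylates SMAD1, SMAD5 and SMAD9, which enter the nucleus with SMAD4 and switch on target genes, the ID genes among the best known. ID proteins lack a DNA-binding domain and hold bHLH transcription factors away from DNA. In neural progenitors they are known for delaying neuronal differentiation and, downstream of BMPs, for favouring the astrocyte lineage. The pathway also switches on its own brakes. SMAD6 and SMAD7 block the receptors and recruit ubiquitin ligases, and BAMBI is a decoy receptor without a kinase domain. Dexamethasone acts through the glucocorticoid receptor, a transcription factor that binds paired half-sites called glucocorticoid response elements.

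In the mouse assembly GRCm38 with the GENCODE M21 annotation, the genes lie at chr2:152736251-152737410 on the plus strand (Id1), chr12:25093799-25097140 on the minus strand (Id2), chr4:136143497-136145755 on the plus strand (Id3), chr13:48261228-48266026 on the plus strand (Id4), chr14:46383520-46390669 on the minus strand (Bmp4), chr2:172868012-172940321 on the minus strand (Bmp7), chr14:34410734-34503341 on the minus strand (Bmpr1a) and chr9:63953076-64022059 on the minus strand (Smad6). Positions of Smad7 and Bambi are not given here. Exons of Id4, Bmp4 and Bmpr1a overlap genes on the opposite strand, and the sources used here do not give the strand setting of the read counting. Of those partners, A330033J07Rik, opposite Id4, averaged at most 1.18 RPM in any group.

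RefSeq promoter sequence was at hand for 6 of the 10 genes. The 3 ID genes among them are shown because they moved differently from each other in the results that follow, with the 250 bases before the annotated start printed 5′ to 3′ on the gene's own strand (build GRCm38.p6). They cover chr12:25096093-25096342 (Id2, minus strand), chr4:136143572-136143821 (Id3, plus strand) and chr13:48260866-48261115 (Id4, plus strand). The starts are those RefSeq gives, which differ from the GENCODE bounds above: the Id2 and Id3 windows lie inside those bounds, and the Id4 window ends before them. Capitals mark the SMAD-binding letters CAGAC, read on both strands so that GTCTG also counts, and the GC-rich SMAD1/5 letters GGCGCC, which read the same on both strands. No 2 marked stretches overlap.
Id2: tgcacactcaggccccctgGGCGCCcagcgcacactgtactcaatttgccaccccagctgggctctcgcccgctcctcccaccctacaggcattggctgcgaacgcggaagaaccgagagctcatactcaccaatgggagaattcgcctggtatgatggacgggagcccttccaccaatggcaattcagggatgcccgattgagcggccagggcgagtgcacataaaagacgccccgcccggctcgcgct
Id3: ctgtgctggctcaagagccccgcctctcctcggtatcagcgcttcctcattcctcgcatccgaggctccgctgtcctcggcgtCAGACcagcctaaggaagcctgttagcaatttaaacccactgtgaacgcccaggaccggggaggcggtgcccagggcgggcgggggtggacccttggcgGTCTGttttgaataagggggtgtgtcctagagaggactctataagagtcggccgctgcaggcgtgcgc
Id4: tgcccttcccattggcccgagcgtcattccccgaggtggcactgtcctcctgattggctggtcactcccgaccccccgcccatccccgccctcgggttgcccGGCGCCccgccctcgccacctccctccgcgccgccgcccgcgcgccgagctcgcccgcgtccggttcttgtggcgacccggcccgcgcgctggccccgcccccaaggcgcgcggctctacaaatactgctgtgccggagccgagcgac
Id2 and Id4 each held 1 GGCGCC and no CAGAC. Id3 held 2 CAGAC matches, 1 on each strand, and no GGCGCC. Of all 32851 mouse promoter windows of this length, 42.2% held CAGAC and 9.59% held GGCGCC. Bmpr1a also held 1 GGCGCC, and Bmp4 and Smad6 held neither. The full glucocorticoid response element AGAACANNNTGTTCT, where N is any base, was in none of the 6 windows and in 3 of the 32851.

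Depth was 16.04 to 25.49 M reads in genes per hypothalamus library and 16.39 to 20.94 M per cortex library. A ribosomal RNA of mitochondria, mt-Rnr2, made up 26.8% to 40.0% of reads from hypothalamus dex libraries and 21.3% to 36.5% in hypothalamus EtOH libraries, against 1.09% to 1.96% in cortex dex and 1.71% to 2.67% in cortex EtOH. Within a table, levels are in RPM, the deposited values, which are read counts divided by a scaled library size in M reads. Levels set across tables use 1 common scaling of all 24 libraries. The glucocorticoid targets Fkbp5, Klf9 and Per1 passed as higher in all 4 tables and Tsc22d3 in 3, with male hypothalamus at 2.59 ± 0.34 (SE, adjusted p = 0.0522, limma). Fkbp5 was higher with dex by 2.36 (male hypothalamus), 2.71 (female hypothalamus), 2.94 (male cortex) and 3.40 (female cortex) on the log2 scale. In bulk libraries, fewer cells of a type and less RNA per cell cannot be told apart.

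Cell type markers were summed on the common scaling. Libraries of both regions were rich in progenitor transcripts, with all 6 progenitor markers (Nes, Sox2, Vim, Fabp7, Pax6, Slc1a3) at 1 RPM or more. Of 4 hypothalamus identity markers (Nkx2-1, Rax, Six3, Six6), 1 reached 1 RPM in the hypothalamus groups, where the list summed to 0.175 to 12.1 RPM, against 0 to 2.40 RPM in cortex, where 1 marker also reached 1 RPM in both male groups and 0 did in the female groups. Mural markers summed to 34.0 to 95.6 RPM in hypothalamus, against 3.75 to 9.82 RPM in cortex. Endothelial markers summed to 5.64 to 31.7 RPM in hypothalamus, against 2.36 to 6.04 RPM in cortex, with a narrow overlap. Of these 6 markers, 2 reached 1 RPM in each hypothalamus group, and Cdh5, Cldn5 or both were at 0 reads in each. Microglial and erythroid markers stayed under 1 RPM in sum.

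Some libraries stood apart. Both libraries of male hypothalamus replicate 2 carried Xist, the female X-inactivation transcript, at 30.1 (dex) and 26.4 (EtOH) RPM beside a male level of the Y-linked Ddx3y at 81.7 and 66.6 RPM. The other 10 male libraries had Xist at 0.163 to 0.768 RPM, and the 12 female libraries at 306.0 to 770.9 RPM. Female hypothalamus replicate 2 held the region's identity markers at 0.253 (dex) and 0.175 (EtOH) RPM in sum, below every other hypothalamus library. Both libraries of female cortex replicate 1 differed from replicates 2 and 3 in Id2, Id4, Bmp4 and Bmp7. In these genes replicate 1 was the one near the male cortex libraries, and replicates 2 and 3 lay away from them. On the common scaling, Id2 was at 44.5, 135.9 and 86.5 RPM in female cortex EtOH replicates 1, 2 and 3. In male cortex EtOH it was at 42.4 to 47.7 RPM. Leaving out replicate 1 thus removes the female cortex culture most like male cortex in these genes. In female cortex the 5 astrocyte markers summed to 456.7, 1965 and 1230 RPM in dex replicates 1, 2 and 3, and to 223.2, 1260 and 845.6 RPM in the EtOH replicates. Leaving out the male hypothalamus pair changed how many of the 10 genes passed in none of the comparisons it entered. Leaving out the female hypothalamus pair, an alternative added after seeing the data, likewise left those numbers as they were in the 6 comparisons it entered. Leaving out the female cortex pair changed that number in female cortex, in the mean over the hypothalamus tables and in the vehicle levels, where the values are given.

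Inhibitors of the pathway fell with dexamethasone in cortex. Bambi fell in the cortex tables of both sexes and Smad7 in male cortex, with Smad7 of female cortex just short of the threshold. Neither passed in hypothalamus. The test was limma's moderated test on log2(RPM + 1), with p-values adjusted over all genes tested in a table by the Benjamini-Hochberg method and a threshold of 0.05. A fold change on this scale understates the change of a low gene.

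In all, 6 of the 8 genes tested in male cortex passed, 2 higher and 4 lower, in a table where 47.6% of 13205 genes passed, 26.7% higher and 20.9% lower. Their median change was −0.21, beside 0.04 over all genes tested there. In female cortex 1 of 9 passed, lower, with 4.42% of 13314 genes passing, 1.4% higher and 3.02% lower. The median change was −0.19, beside 0.02 over all genes. With the replicate number as a block 5 of 9 passed there, where 38.1% of all genes did. Without both libraries of replicate 1, an alternative added after seeing the data, 3 of 9 passed, where 11.5% of 12928 genes did: Id1 (adjusted p = 0.0104), Smad7 (0.0281) and Bambi (0.0114, limma). The 2 tables thus differed widely in how many genes of any kind passed.

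Smad7 had 1.93, 3.98 and 2.87 RPM in the 3 male cortex dex libraries, against 8.66, 10.2 and 10.998 RPM in the EtOH libraries. Every dex library was below every EtOH library. The change was −1.51 ± 0.18 on the log2 scale (SE, adjusted p = 0.000103, limma). In female cortex, Smad7 had 2.74, 6.27 and 4.28 RPM with dex, from 58, 100 and 89 reads, against 10.1, 16.7 and 11.2 RPM with EtOH. The groups again did not overlap, yet the change of −1.35 ± 0.30 missed the threshold (adjusted p = 0.0629, limma) and passed it with the replicate number as a block (adjusted p = 0.000117). The numbers pair the samples in the female cortex table and in both hypothalamus tables, where same-numbered libraries deviated together.

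Bambi had 4.34, 3.39 and 4.04 RPM in male cortex dex libraries, against 11.95, 11.2 and 9.47 RPM with EtOH. The lowest EtOH library was more than 2 times the highest dex library, and the change was −1.27 ± 0.12 (SE, adjusted p = 2.33e-05, limma). Female cortex gave 2.79, 1.82 and 2.12 RPM with dex, against 9.76, 5.59 and 5.52 RPM with EtOH. There Bambi fell by 1.27 ± 0.25 (adjusted p = 0.0484, limma). This call sat close to the threshold: each of the 6 leave-one-out fits ended it (adjusted p from 0.0713 to 0.201), whichever dex or EtOH library was left out, while the block gave 0.000307. Smad6, which acts like Smad7 at the receptor, was nearly absent, with 0 to 16 reads and at most 0.860 RPM in any library, and entered no test.

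**Figure D1:**
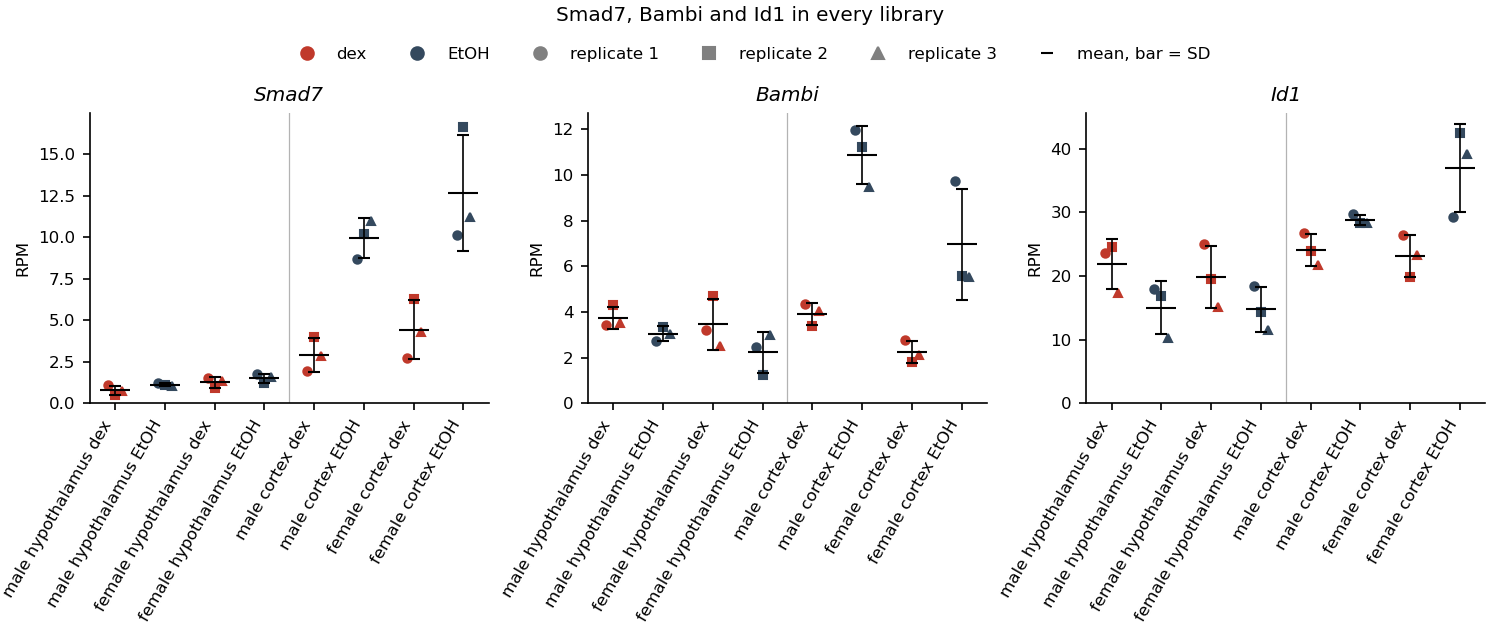
Smad7, Bambi and Id1 in RPM (vertical axes, linear) in each of the 24 libraries, with hypothalamus groups left of the grey line and cortex groups right of it. Points are libraries, with the replicate number by shape, horizontal lines are group means and bars are the SD of 3 libraries. In both cortex pairs the dex points of Smad7 and Bambi all sit below the EtOH points, and in hypothalamus Smad7 stays under 2 RPM in every library.

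The ID genes did not move together in male cortex. Id1 and Id4 fell, Id3 rose, and Id2 did not pass the test. Id1 had 26.7, 24.0 and 21.7 RPM with dex, against 29.7, 28.2 and 28.3 RPM with EtOH, a change of −0.25 ± 0.08 (SE, adjusted p = 0.0306, limma). The groups did not overlap. Its call held in 1 of 6 leave-one-out fits: leaving out dex replicate 1 kept it, and leaving out any other library ended it, with adjusted p from 0.0109 to 0.124 over the 6. Id4 had 5.89, 6.30 and 6.50 RPM with dex, against 9.92, 9.41 and 11.2 RPM with EtOH. All dex libraries were below all EtOH libraries, the change was −0.63 ± 0.10 (adjusted p = 0.000623, limma), and the call held in 6 of 6 such fits.

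Id3, the most abundant of the ID genes per length, went the other way. It had 139.1, 105.6 and 98.997 RPM with dex in male cortex, against 100.3, 86.0 and 82.9 RPM with EtOH. The groups overlapped by a narrow margin, since the lowest dex library was under the highest EtOH library. The change of 0.34 ± 0.12 passed (adjusted p = 0.0375, limma). It was lost without dex replicate 1, EtOH replicate 2 or EtOH replicate 3 (adjusted p from 0.0155 to 0.121 over the 6 fits, limma). The change also missed in edgeR's quasi-likelihood test (adjusted p = 0.0689) and with no filter on low genes (adjusted p = 0.0715, limma). With no filter 5 of the 10 genes passed, 1 higher and 4 lower, where 27.2% of 24331 genes passed. Id2 had 44.3, 50.9 and 53.9 RPM with dex, against 57.9, 52.1 and 58.4 RPM with EtOH. These groups overlapped, and the change of −0.18 ± 0.08 missed the threshold (adjusted p = 0.101, limma) but passed in edgeR's quasi-likelihood test (adjusted p = 0.0386).

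In female cortex no ID gene passed the test. Id1 had 26.4, 19.8 and 23.3 RPM with dex, against 29.2, 42.5 and 39.1 RPM with EtOH. The groups did not overlap, and the change was −0.64 ± 0.18 (adjusted p = 0.107, limma, and 0.0120 with the replicate block). Id2 had 49.0, 140.4 and 99.6 RPM with dex, against 54.1, 173.5 and 109.7 RPM with EtOH, a spread between replicates far wider than the difference of −0.19 ± 0.53. Within each same-numbered pair Id2 was lower with dex, and it passed with the block (adjusted p = 0.0483). Id4 had 5.62, 54.8 and 24.9 RPM with dex, against 8.05, 54.0 and 22.6 RPM with EtOH. The replicates differed from each other much more than the treatments did, and the change was −0.10 ± 0.94. Id3 had 116.9, 84.98 and 74.2 RPM with dex, against 96.0, 95.6 and 92.4 RPM with EtOH, with overlapping groups and a change of −0.07 ± 0.17.

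Of the ligands, Bmp7 was well expressed and Bmp4 was not. Bmp7, a secreted ligand that also acts through Acvr1, had 81.2, 77.0 and 84.5 RPM in male cortex with dex, against 94.5, 80.5 and 87.0 RPM with EtOH. The groups overlapped, and the change was −0.11 ± 0.07 (adjusted p = 0.218, limma). In female cortex it had 88.003, 19.3 and 34.7 RPM with dex, against 95.2, 30.3 and 48.9 RPM with EtOH. Replicate 1 was high in both treatments, the reverse of Id2 and Id4, where replicate 1 was low. The change was −0.41 ± 0.63, and it passed with the block alone (adjusted p = 0.0147). Bmp4 was near 0 in male cortex, with 0, 3 and 2 reads in the dex libraries and 2, 0 and 0 reads in the EtOH libraries. Female cortex had 0.0472, 4.26 and 2.74 RPM of Bmp4 with dex, against 0.0519, 3.87 and 2.08 RPM with EtOH, so that replicates 2 and 3 carried it and replicate 1 had 1 read in each library. Roof plate and choroid plexus markers, from an embryonic source of BMPs, summed to 0.859, 3.86 and 0.966 RPM in the female cortex dex replicates and to 0.171, 3.58 and 4.71 RPM in the EtOH replicates. Their part in these values was not tested.

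Bmpr1a, a type I receptor for these ligands, rose in male cortex. It had 274.2, 245.1 and 272.1 RPM with dex, against 211.9, 223.8 and 220.8 RPM with EtOH. No dex library reached down to the EtOH range, and the change was 0.27 ± 0.06 (SE, adjusted p = 0.00319, limma). In female cortex the values were 273.1, 303.1 and 298.3 RPM with dex, against 199.6, 291.5 and 261.2 RPM with EtOH. These overlapped, and the change of 0.23 ± 0.15 did not pass (adjusted p = 0.456, limma).

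**Figure D2:**
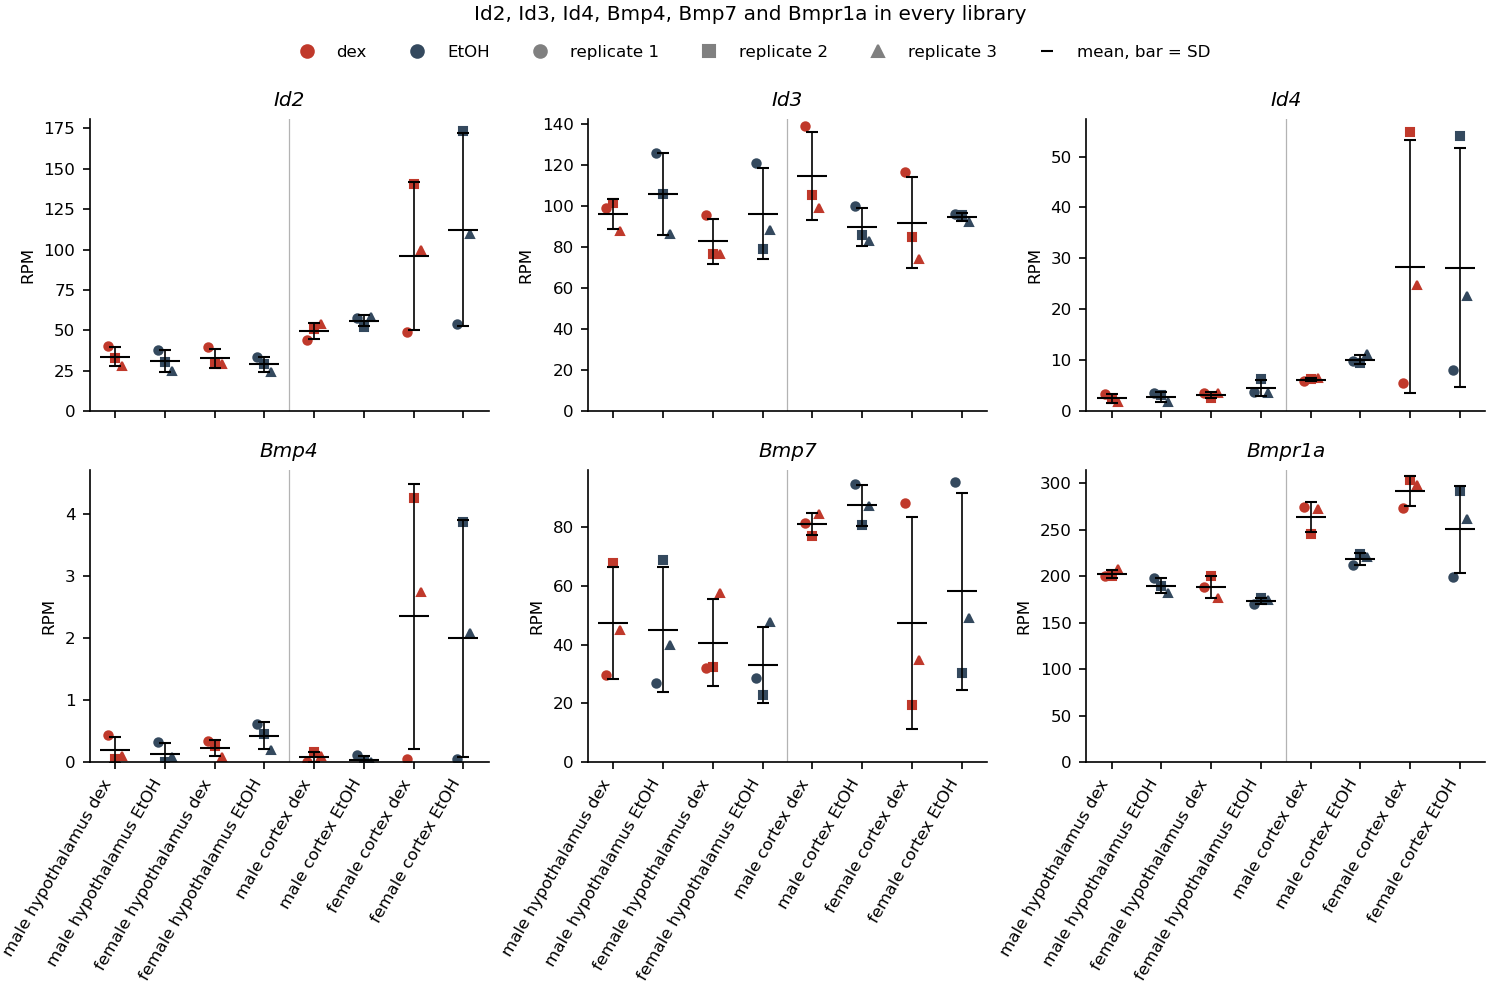
Id2, Id3, Id4, Bmp4, Bmp7 and Bmpr1a in RPM (vertical axes, linear) in each of the 24 libraries. Points are libraries, with the replicate number by shape, horizontal lines are group means and bars are the SD of 3 libraries. In female cortex, replicates 1, 2 and 3 lie far apart for Id2, Id4, Bmp4 and Bmp7 in both treatments, while in male cortex they lie close together.

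The authors' deposited table gives its own fold changes and adjusted p-values, computed over all entries. By it, Smad7 (−1.76 on the log2 scale, adjusted p = 4.51e-07) and Bambi (−1.47, 7.83e-06) passed 0.05 in male cortex, where 5.99% of entries did. Id1 (adjusted p = 0.838), Id3 (0.425), Bmpr1a (0.437) and Id4 (unadjusted p = 0.272), which passed in limma there, did not pass in the authors' deposited table. In female cortex, the authors' deposited table gave Bambi −1.62 (adjusted p = 2.33e-06), Smad7 −1.52 (1.59e-05) and Id1 −0.67 (0.00909) on the log2 scale, with 5.33% of entries passing. None of the 10 genes passed in the authors' deposited table for male hypothalamus (0.414% of entries) or female hypothalamus (0.486%).

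In hypothalamus none of the 8 genes tested passed in either sex. In male hypothalamus 0.226% of 12403 genes passed, and in female hypothalamus 0.841% of 12491. None of the 8 had an unadjusted p under 0.05 in either table, and edgeR's quasi-likelihood test and DESeq2 each called 0 as well. The median change of the 8 was 0.09 in male hypothalamus and 0.14 in female hypothalamus, beside 0.00 and 0.01 over all genes.

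Smad7 was low in hypothalamus with either treatment. It had 1.07, 0.503 and 0.747 RPM in male hypothalamus with dex, against 1.19, 1.10 and 1.02 RPM with EtOH. These overlapped, and the change was −0.26 ± 0.17. Female hypothalamus had 1.53, 0.888 and 1.36 RPM with dex, against 1.74, 1.203 and 1.57 RPM with EtOH, a change of −0.15 ± 0.17. The dex libraries held 11 to 35 reads of Smad7 each, and the EtOH libraries 22 to 39, so these values rest on few reads. Bambi had 3.41, 4.30 and 3.53 RPM in male hypothalamus with dex, against 2.72, 3.36 and 3.05 RPM with EtOH, and 3.19, 4.70 and 2.51 RPM in female hypothalamus with dex, against 2.45, 1.25 and 2.98 RPM with EtOH. The male groups did not overlap and the female groups did. The changes were 0.23 ± 0.14 and 0.48 ± 0.27, both above 0, where the cortex changes were below 0.

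Id1 was higher with dex in each same-numbered hypothalamus pair. It had 23.6, 24.6 and 17.4 RPM in male hypothalamus with dex, against 17.9, 16.8 and 10.2 RPM with EtOH. The change of 0.54 ± 0.23 did not pass (adjusted p = 0.645, limma). Female hypothalamus had 24.9, 19.4 and 15.2 RPM with dex, against 18.5, 14.4 and 11.5 RPM with EtOH, a change of 0.40 ± 0.22 (adjusted p = 0.664, limma). The groups overlapped in both sexes, since replicate 3 was low with either treatment. With the replicate block, which compares each dex library with the EtOH library of the same number, Id1 was the 1 gene of the 8 that passed in male hypothalamus (adjusted p = 0.00332) and in female hypothalamus (0.0267). The block had 13.1% and 7.14% of all genes passing in those tables.

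The other genes moved little in hypothalamus. Id2 averaged 33.9 ± 6.13 RPM in male hypothalamus with dex and 31.1 ± 6.66 RPM with EtOH (SD, n = 3 each). In female hypothalamus it averaged 32.7 ± 5.99 RPM with dex and 29.0 ± 4.48 RPM with EtOH. Id3 averaged 96.0 ± 7.28 RPM with dex and 106.0 ± 19.8 RPM with EtOH in males, and 83.0 ± 10.9 RPM with dex and 96.3 ± 22.1 RPM with EtOH in females. All these groups overlapped, and Id2 lay on the side of an increase where Id3 lay on the side of a decrease. Id4 averaged 2.53 ± 0.877 RPM with dex and 2.85 ± 0.954 RPM with EtOH in males, and 3.22 ± 0.574 RPM with dex and 4.57 ± 1.54 RPM with EtOH in females. Bmp7 had 29.6, 67.6 and 45.1 RPM in male hypothalamus with dex, against 26.9, 68.7 and 39.8 RPM with EtOH, and 32.2, 32.3 and 57.7 RPM in female hypothalamus with dex, against 28.8, 23.03 and 47.7 RPM with EtOH. Its level followed the replicate number more than the treatment. Bmpr1a averaged 202.6 ± 4.43 RPM with dex and 189.9 ± 8.13 RPM with EtOH in males, and 188.5 ± 11.6 RPM with dex and 173.8 ± 3.12 RPM with EtOH in females. The groups did not overlap in either sex, but the changes of 0.09 ± 0.07 and 0.11 ± 0.08 did not pass (adjusted p = 0.776 and 0.720, limma). Bmp4 stayed at or under 0.623 RPM in all 12 hypothalamus libraries, 0 to 14 reads each.

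**Figure D3:**
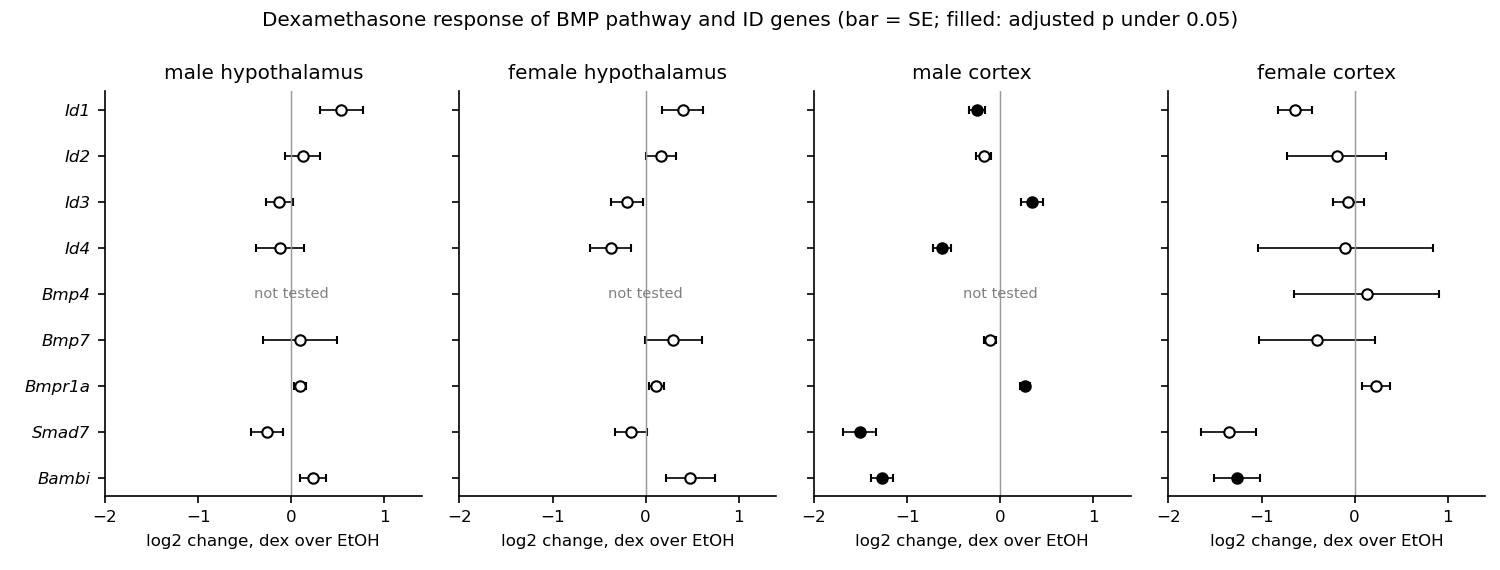
Log2 change, dex over EtOH (horizontal axes), of the 9 genes that entered a test, with a panel per table and a bar of 1 SE. Filled points passed an adjusted p of 0.05 in limma and open points did not. Smad7 and Bambi lie far left of 0 in both cortex panels, and in the hypothalamus panels Bambi and Id1 lie right of 0.

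The difference between the regions was tested directly, as the dex response in hypothalamus minus that in cortex, with 24 libraries in 1 fit on the common scaling. It passed for 3 of 9 genes, all higher, where 13.9% of 13932 genes passed and 7.3% were higher. The hypothalamus libraries had 21.3% to 40.0% of their reads in mt-Rnr2, against 1.09% to 2.67% in cortex libraries. Region and what set the libraries apart in that share thus cannot be told apart. Bambi differed by 1.59 ± 0.22 on the log2 scale (SE, adjusted p = 8.62e-05, limma), Smad7 by 1.14 ± 0.22 (0.00168) and Id1 by 0.91 ± 0.21 (0.00635). Smad7 averaged 1.63 RPM in hypothalamus EtOH and 9.08 RPM in cortex EtOH. On log2(RPM + 1) a fall of the same ratio reads smaller from the lower level. Each of the 3 passed in all 24 leave-one-out fits and in edgeR (0.000137, 0.0140 and 0.00510). They also passed without both libraries of male hypothalamus replicate 2 (adjusted p = 0.000570, 0.00370 and 0.0159) and without both of female hypothalamus replicate 2 (0.000183, 0.00316 and 0.0182). The other 6 did not pass. Their differences were 0.32 ± 0.33 for Id2, −0.31 ± 0.18 for Id3, 0.08 ± 0.56 for Id4, −0.18 ± 0.42 for Bmp4, 0.44 ± 0.48 for Bmp7 and −0.16 ± 0.09 for Bmpr1a, and Smad6 was not tested. With the replicate block 6 of 9 passed, now with Id2 (adjusted p = 0.00379), Id3 (0.0177) and Bmp7 (0.000649), where 38.9% of all genes did, although the male cortex numbers were not shown to pair its samples.

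Averaged over the sexes in the same fit, 4 of 9 genes passed in cortex, where 34.5% of genes did. Bmpr1a rose by 0.26 ± 0.06 (adjusted p = 0.00236, limma), Smad7 fell by 1.37 ± 0.16 (1.65e-06), Bambi fell by 1.21 ± 0.16 (8.09e-06) and Id1 fell by 0.43 ± 0.15 (0.0282). The Id1 call was lost without EtOH replicate 2, dex replicate 2 or EtOH replicate 3 of female cortex, or without EtOH replicate 1 or dex replicate 3 of male cortex (adjusted p from 0.0155 to 0.0712 over 24 fits). The other 5 did not pass in cortex, with changes of −0.17 ± 0.23 for Id2, 0.14 ± 0.13 for Id3, −0.34 ± 0.40 for Id4, 0.10 ± 0.30 for Bmp4 and −0.25 ± 0.34 for Bmp7. In hypothalamus 0 of 9 passed in limma, where 5.3% of genes did, and 2 had an unadjusted p under 0.05, Id1 and Bambi. Id1 changed by 0.47 ± 0.15 there (adjusted p = 0.0689) and Bambi by 0.37 ± 0.16 (0.185). The others were at 0.14 ± 0.23 (Id2), −0.16 ± 0.13 (Id3), −0.26 ± 0.40 (Id4), −0.08 ± 0.30 (Bmp4), 0.20 ± 0.34 (Bmp7), 0.10 ± 0.06 (Bmpr1a) and −0.23 ± 0.16 (Smad7). By edgeR 0 passed and by DESeq2 1, Id1 (adjusted p = 0.0339). Id1 also passed without both libraries of female cortex replicate 1, and without EtOH replicate 1 or dex replicate 3 of male hypothalamus, or EtOH replicate 1 or dex replicate 3 of female hypothalamus (adjusted p from 0.0282 to 0.195 over 24 fits). With the block 7 of 9 passed in cortex (56.8% of genes) and 2 in hypothalamus (29.4%), Id1 and Bmp7.

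The ratio of same-numbered libraries, dex over EtOH, shows the same values without a model; the numbers are not shown to pair the samples in male cortex. Smad7 was lower with dex in all 6 hypothalamus pairs (median ratio 0.801, range 0.456 to 0.899) and in all 6 cortex pairs (0.324, 0.222 to 0.390). The 2 ranges did not overlap. Bambi was higher with dex in 5 of 6 hypothalamus pairs (1.27, 0.840 to 3.76) and lower in 6 of 6 cortex pairs (0.344, 0.286 to 0.427). Id1 was higher in 6 of 6 hypothalamus pairs (1.35, 1.32 to 1.70) and lower in 6 of 6 cortex pairs (0.807, 0.466 to 0.902). Id2 also lay on opposite sides, with a median of 1.11 in hypothalamus, higher in 6 of 6, and 0.906 in cortex, lower in 6 of 6.

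**Figure D4:**
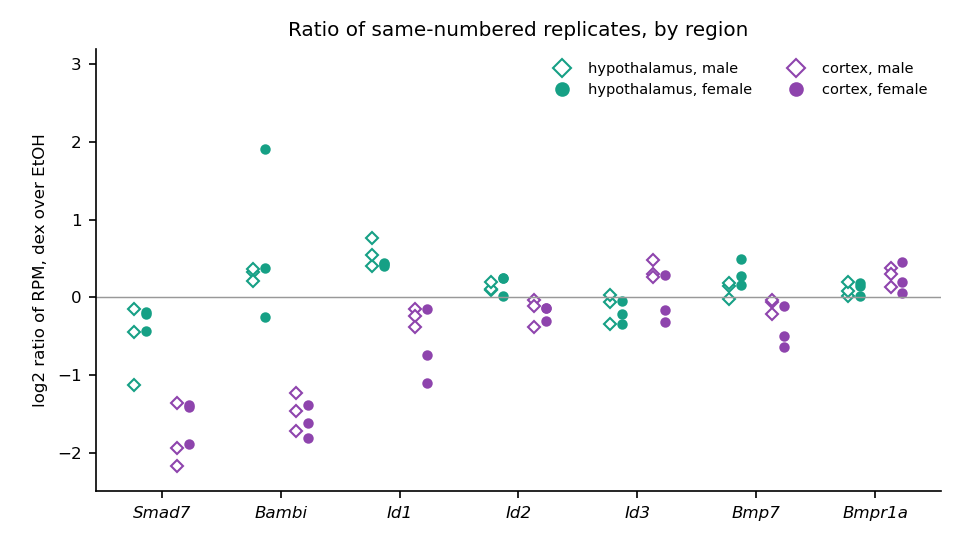
Log2 ratio of RPM in same-numbered libraries, dex over EtOH (vertical axis), for 7 genes, with 6 pairs per region; diamonds are male and circles female pairs, green hypothalamus and purple cortex. All cortex ratios of Smad7, Bambi and Id1 lie below 0, and all hypothalamus ratios of Id1 lie above it.

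Markers of other cell types went with the treatment in cortex, some higher with dex and some lower. Oligodendrocyte lineage markers summed to 1391 to 1694 RPM in cortex dex libraries, against 1094 to 1221 RPM in cortex EtOH libraries, and neuron markers to 828.1 to 1114 RPM, against 605.1 to 779.4 RPM. The oligodendrocyte list includes Olig1 and Olig2, which are counted again below among the bHLH factors. In cortex, Olig1 averaged 836.7 RPM with dex and 595.3 RPM with EtOH, and Olig2 411.1 and 292.8 RPM. In hypothalamus the oligodendrocyte list gave 888.3 to 1164 RPM with dex, against 864.5 to 1130 RPM with EtOH, and the neuron list 912.6 to 1119 RPM, against 846.6 to 1199 RPM. The astrocyte list, whose genes include BMP-responsive Gfap, ran from 365.3 to 1318 RPM in hypothalamus with dex, against 260.2 to 815.8 RPM with EtOH, and from 456.7 to 1965 RPM in cortex with dex, against 223.2 to 1260 RPM with EtOH. Endothelial markers summed to 2.36 to 3.13 RPM in cortex dex libraries, against 3.78 to 6.04 RPM in cortex EtOH libraries, with no overlap. Mural markers summed to 3.75 to 6.97 RPM with dex, against 4.76 to 9.82 RPM with EtOH, and mesenchymal markers to 0.742 to 2.64 RPM, against 1.49 to 3.91 RPM. All 3 lists were lower with dex in each same-numbered cortex pair, as Smad7, Bambi and Id1 were. Of their defining markers, the endothelial gene Cdh5 was at 0 in all 4 cortex groups and Cldn5 in 3. The fibroblast gene Dcn was at 0 in both cortex dex groups. In hypothalamus the endothelial list gave 5.64 to 30.3 RPM with dex, against 7.40 to 31.7 RPM with EtOH, the mural list 44.1 to 78.3 RPM, against 34.0 to 95.6 RPM, and the mesenchymal list 0.760 to 1.23 RPM, against 0.700 to 1.63 RPM. The part of these cell types, and of the mt-Rnr2 share, in the changes of Smad7, Bambi and Id1 was not tested.

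Between the sexes, the difference in response was tested for 9 of the 10 genes in cortex and 8 in hypothalamus, and none passed. That difference, male minus female, passed for 0% of 13680 genes in cortex and 0% of 12843 in hypothalamus with limma, and for 0 genes with edgeR's quasi-likelihood test and DESeq2. At an unadjusted p under 0.05 there were 169 and 33 genes, and none of those tested here. Without both libraries of female cortex replicate 1, 82 genes passed in cortex, none of them among the 9. In cortex, Smad7 differed by −0.19 ± 0.37 on the log2 scale, Bambi by −0.04 ± 0.30 and Id1 by 0.36 ± 0.20 (SE). The other ID genes differed by −0.02 ± 0.55 (Id2), 0.37 ± 0.25 (Id3) and −0.56 ± 0.996 (Id4), and Bmp4 by −0.08 ± 0.84, Bmp7 by 0.26 ± 0.70 and Bmpr1a by −0.00383 ± 0.15. In hypothalamus the differences were 0.14 ± 0.35 for Id1, −0.04 ± 0.27 for Id2, 0.07 ± 0.24 for Id3, 0.25 ± 0.36 for Id4, −0.20 ± 0.56 for Bmp7, −0.02 ± 0.0955 for Bmpr1a, −0.10 ± 0.23 for Smad7 and −0.25 ± 0.32 for Bambi. Bmp4 in hypothalamus and Smad6 in either region were too low to be tested. The SE over the genes reached 0.996 in cortex (Id4) and 0.558 in hypothalamus (Bmp7), so that sizeable differences could have been missed. The response of Smad7, which passed in male and not in female cortex, is thus not shown to differ between the sexes.

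The vehicle libraries gave each gene's starting level. Here too region went with the mt-Rnr2 share of the libraries, and the 2 cannot be told apart. Hypothalamus EtOH was set against cortex EtOH on the common scaling, and 7 of 9 genes passed, 2 higher and 5 lower, where 58.4% of genes passed, 29.3% higher and 29.1% lower. Smad7 averaged 1.63 RPM in the 6 hypothalamus EtOH libraries and 9.08 RPM in the 6 cortex EtOH libraries, a difference of −1.93 ± 0.16 (SE, adjusted p = 5.06e-09, limma). Bambi averaged 3.29 RPM in hypothalamus EtOH and 7.21 RPM in cortex EtOH (−0.92 ± 0.16, adjusted p = 6.46e-05, limma). In neither gene did the regions overlap. With dexamethasone the cortex mean came to 2.98 RPM for Smad7 and 2.50 RPM for Bambi, in ranges that overlapped those of hypothalamus EtOH.

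Id4 (−1.27 ± 0.40), Id2 (−0.69 ± 0.23) and Id1 (−0.50 ± 0.15) were also lower in hypothalamus EtOH than in cortex EtOH (SE, adjusted p = 0.00984, 0.0149 and 0.00729, limma). Unlike Smad7 and Bambi, these genes had overlapping ranges in the regions. Female cortex EtOH replicates 2 and 3 were at 42.3 and 17.8 RPM for Id4 and 135.9 and 86.5 RPM for Id2. The other cortex EtOH libraries reached at most 9.11 RPM for Id4 and 47.7 RPM for Id2. The Id2 call was lost without female cortex EtOH replicate 2, with adjusted p from 0.000809 to 0.0525 over the 24 fits. Id3 was higher, averaging 126.4 RPM in hypothalamus EtOH and 74.2 RPM in cortex EtOH with no overlap (0.74 ± 0.13, adjusted p = 5.39e-05, limma). Bmpr1a was higher on the common scaling (0.28 ± 0.06, adjusted p = 0.000672, limma) but lower on the deposited scaling (−0.36, adjusted p = 8.8e-05), on which the median of all genes lay at −0.57. On that scaling 0 of the 10 genes were higher and 7 lower, where 79.2% of genes passed: Id3 no longer passed (0.11, adjusted p = 0.406, limma) and Bmp7 did (−0.87, adjusted p = 0.0219). Relative to that median Bmpr1a was at 0.21, Id3 at 0.68, Smad7 at −1.83, Bambi at −0.86, Id4 at −1.25, Id2 at −0.75 and Id1 at −0.54. Bmp7 (−0.25 ± 0.34) and Bmp4 (−0.19 ± 0.30) did not pass, although without both libraries of female cortex replicate 1 Bmp4 did (−0.47, adjusted p = 0.00950, limma). That pair was left out after seeing the data and held 1 read of Bmp4 in each library, so leaving it out raises the cortex level by itself. In male EtOH libraries Bmp4 lay the other way, at 0.167 RPM in hypothalamus and 0.0296 RPM in cortex. Mural and endothelial markers, higher in hypothalamus as given above, went with region in the same way as Id3, and their part in these levels was not tested.

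Per kilobase of exons, the order of the levels could be compared between genes. In hypothalamus EtOH it ran Id3 (70.6 ± 13.1 RPM per kb, SD, n = 6), Bmpr1a (35.8 ± 1.68), Id1 (16.02 ± 3.61), Id2 (15.4 ± 2.55), Bmp7 (12.2 ± 5.19), Id4 (1.21), Bambi (0.649), Smad7 (0.361), Bmp4 (0.158) and Smad6 (0.0284). Neighbours whose ranges did not overlap were Id3 and Bmpr1a, Bmpr1a and Id1, and Bmp7 and Id4. In cortex EtOH it ran Id3 (41.5 RPM per kb), Bmpr1a (29.7), Id2 (27.6), Id1 (22.7), Bmp7 (14.7), Id4 (3.96), Smad7 (2.01), Bambi (1.42), Bmp4 (0.356) and Smad6 (0.102). There, ranges did not overlap between Id3 and Bmpr1a or between Id1 and Bmp7. The inhibitors Smad7, Bambi and Smad6 thus lay below Id1, Id2, Id3 and Bmpr1a in both regions.

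**Figure D5:**
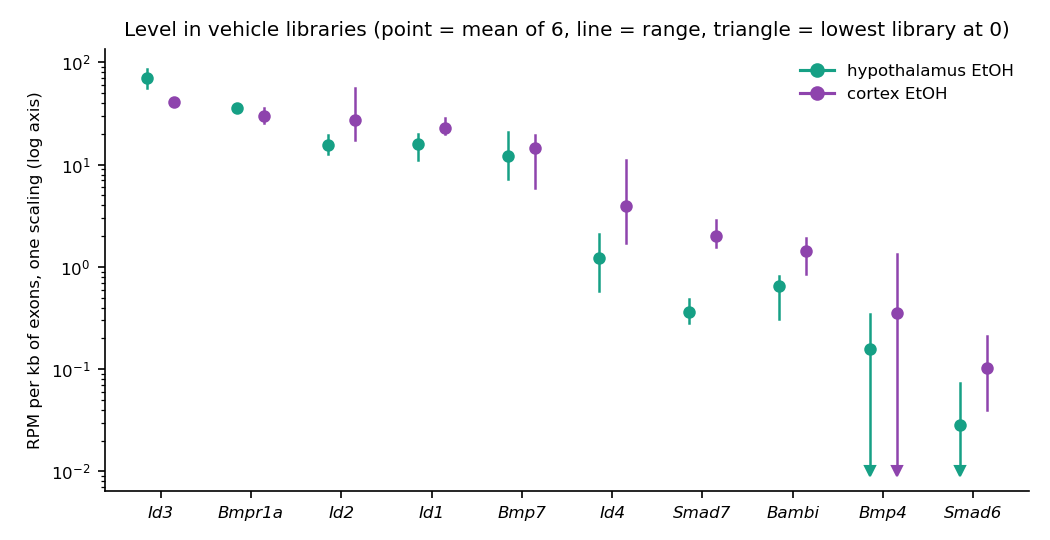
Level of the 10 genes in EtOH libraries, in RPM per kilobase of exons on the common scaling (vertical axis, log scale), hypothalamus in green left of cortex in purple. Points are means of 6 libraries, lines run from the lowest to the highest library, and triangles mark a lowest library at 0. Id3 and Bmpr1a stand at the top, and Smad7 and Bambi are lower in hypothalamus than in cortex without overlap.

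Around these genes, 69 other genes of the pathway were counted in 8 lists. In male cortex 12 were higher and 18 lower of 50 tested, beside 26.7% and 20.9% of all genes there. In female cortex 0 were higher and 4 lower of 49, beside 1.4% and 3.02% of all genes. The lists that follow are small, and their counts describe them and no more. In hypothalamus 0 of 43 passed in either sex with limma. Among the other ligands, Bmp2, a close relative of Bmp4, averaged 0.264 ± 0.0549 RPM in male cortex with dex and 3.53 ± 1.07 RPM with EtOH (SD, n = 3 each), and fell by 1.81 ± 0.18 (SE, adjusted p = 3.42e-05, limma). In female cortex it averaged 0.491 ± 0.315 RPM with dex and 3.48 ± 1.48 RPM with EtOH (−1.56 ± 0.30, adjusted p = 0.0469, limma). Its dex libraries held 3 to 12 reads each in female cortex and 4 to 6 in male cortex. Bmp2 was at 0.421 RPM with dex and 0.545 RPM with EtOH in male hypothalamus, and 0.524 and 0.500 RPM in female hypothalamus, too low to be tested there.

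Of the 9 other receptors and co-receptors tested in male cortex, 2 were higher and 4 lower, beside 26.7% and 20.9% of all genes, with a median change of −0.20 beside 0.04 over all genes. In female cortex 0 of 8 passed. Bmpr1b, the second BMP type I receptor, averaged 113.0 ± 0.233 RPM with dex and 75.7 ± 2.69 RPM with EtOH (0.57 ± 0.05, adjusted p = 1.36e-05, limma). Acvr1, a type I receptor for BMP7 and activins, averaged 5.43 ± 0.352 RPM with dex and 12.97 ± 1.78 RPM with EtOH and fell (−1.11 ± 0.11, adjusted p = 3.51e-05, limma). The co-receptors Rgmb (−0.57) and Eng (−0.99) and the type II receptor Bmpr2 (−0.25) fell too. Among the 4 other SMADs, 1 passed in male cortex, where 47.6% of all genes did, and 0 in female cortex: the signal carrier Smad5 averaged 461.6 ± 4.42 RPM with dex and 306.7 ± 17.6 RPM with EtOH (0.59 ± 0.05, adjusted p = 1.61e-05, limma). In male cortex, then, the type I receptors Bmpr1a and Bmpr1b were higher and Acvr1 was lower.

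The intracellular regulators Tob1, Smurf1 and Ski fell in cortex of both sexes. Of 8 such regulators tested, 1 was higher and 3 lower in male cortex (median change −0.08), a share close to the 47.6% of all genes that passed there. In female cortex 0 were higher and 3 lower (−0.20), where 3.02% of genes were lower. Tob1, which represses SMAD activity, averaged 57.5 ± 5.37 RPM in male cortex with dex and 131.2 ± 6.67 RPM with EtOH (−1.18 ± 0.07, adjusted p = 1.42e-06, limma). In female cortex it averaged 65.0 ± 7.88 RPM with dex and 140.3 ± 10.3 RPM with EtOH (−1.10 ± 0.12, adjusted p = 0.0102, limma). Smurf1, the ubiquitin ligase that targets SMAD1 and SMAD5, fell by 0.56 ± 0.07 in male cortex and by 0.64 ± 0.09 in female cortex, and the SMAD co-repressor Ski fell by 0.38 ± 0.08 and by 0.70 ± 0.11. Zeb2, a SMAD-binding repressor, was the 1 that rose in male cortex (0.27 ± 0.07).

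Secreted antagonists split in male cortex, with 3 higher and 2 lower of 9 tested, a share close to the 47.6% of all genes that passed, and a median change of −0.13. In female cortex 0 of 9 passed. Fst, which binds activins and BMPs, averaged 4.29 ± 0.504 RPM with dex and 16.4 ± 1.76 RPM with EtOH (−1.71 ± 0.11, adjusted p = 2.15e-06, limma), and Nbl1 fell by 0.29 ± 0.06. Smoc1 (0.33), Twsg1 (0.30) and Fstl1 (0.49) rose. Of 3 other BMP target genes tested, 2 fell, beside 20.9% of all genes, and 0 of 2 passed in female cortex. In male cortex Hey1 averaged 54.2 ± 5.78 RPM with dex and 96.4 ± 4.58 RPM with EtOH (−0.82 ± 0.08), and Dlx2 changed by −1.09 ± 0.20. The median change of these 3 was −0.82.

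The bHLH factors, the partners of ID proteins, were counted as well, and 4 were higher and 2 lower of 8 tested in male cortex, beside 26.7% and 20.9% of all genes, with a median change of 0.19. The Notch effector Hes5 averaged 221.9 ± 17.1 RPM with dex and 123.0 ± 5.37 RPM with EtOH. The oligodendrocyte lineage factors Olig1 (0.56 ± 0.05) and Olig2 (0.50 ± 0.05) rose, as did the E protein gene Tcf4 (0.28 ± 0.07), a direct partner of ID proteins. Hes1 fell by 0.42 ± 0.06. Of the 9 tested in female cortex, 0 passed in limma, where 4.42% of all genes did, with a median change of 0.32 beside 0.02 over all genes.

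Tested between the regions, 8 of 53 pathway genes had a higher response in hypothalamus than in cortex and 3 a lower one, beside 7.3% and 6.65% of all genes. The 8 were Fst (2.35 ± 0.38 on the log2 scale, adjusted p = 0.000318, limma), Bmp2 (1.47 ± 0.27), Tob1 (0.95 ± 0.14), Eng (0.78 ± 0.17), Dlx2 (0.75 ± 0.22), Acvr1 (0.67 ± 0.20), Smad3 (0.64 ± 0.20) and Smad2 (0.36 ± 0.06). Bmp2, Eng and Dlx2 averaged 0.651, 0.126 and 0.118 RPM in hypothalamus EtOH on the common scaling, against 2.83, 0.968 and 1.63 RPM in cortex EtOH. A fall in hypothalamus could hardly show at such levels, so their place among the 8 says little about the response there. Fst averaged 4.25 ± 1.22 RPM in male hypothalamus with dex and 2.45 ± 0.282 RPM with EtOH, and 4.06 ± 2.36 RPM in female hypothalamus with dex and 1.66 ± 0.646 RPM with EtOH. These increases did not pass within a table (adjusted p = 0.554 and 0.515, limma), but like Bambi and Id1 they lay on the other side of 0 from cortex. The 3 with a lower response in hypothalamus were the bHLH genes Tcf4 (−0.62 ± 0.13), Olig2 (−0.55 ± 0.14) and Olig1 (−0.41 ± 0.13). Averaged over the sexes, 3 of 53 pathway genes passed in hypothalamus, all lower, a share close to the 5.3% of all genes that passed, with 2.29% lower: Tgfb3 (−0.72 ± 0.15), Smurf1 (−0.37 ± 0.07) and Bmpr2 (−0.36 ± 0.09).

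The genes whose pattern was most like that of an ID gene were found over 24 libraries, after each region's and sex's mean was taken out, as the root mean square difference on the log2 scale among 9275 genes of 10 RPM or more. For Id1 they were Zfp958 (0.20), Stk17b (0.20) and Plekho2 (0.21), where the median gene differed from Id1 by 0.38. For Id2 they were Tex264 (0.16), Map1lc3b (0.17) and Fez1 (0.18), beside a median of 0.41. For Id3 they were Lrig1 (0.15), Nae1 (0.15) and 2310044G17Rik (0.16), beside a median of 0.27. No other ID gene was among them. A gene constant within each region and sex would differ from Id1 by 0.32, from Id2 by 0.36 and from Id3 by 0.22. Those values lie below the medians, so the likeness is weaker than the medians make it look. Id4 was under the level at which genes were compared in this way.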

How the data were processed

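Total RNA was read from 24 libraries, 3 per group in 8 groups, prepared with a stranded total RNA kit per the labels' protocols. The submitters' processing notes name TopHat2 (2.0.13 and 2.0.9), HTSeq and the build GRCm38. The 4 tables deposited by the authors, 1 per region and sex, give a signal per gene and library, the read count divided by a scaled library size and named RPM here. They also hold the authors' deposited fold change as a ratio, its log2 value, and raw and adjusted p-values. Each table had 38924 entries, of which 4 that shared a name were left out and 23 that had turned into dates were kept. Whole reads were recovered from the RPM steps, with all values whole within 0.01. No column of samples outside the series was found (0).

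Tests used limma 3.58.1 in R 4.3.3 on log2(RPM + 1), with a pseudocount of 1, for genes of at least 1 RPM in 3 or more libraries, with p-values adjusted over all genes tested and a threshold of 0.05. Fits across tables used TMM scaling of recovered reads. The log2 changes are dex minus EtOH, hypothalamus minus cortex and male minus female. Alternatives were edgeR 4.0.16 and DESeq2 1.42.0 on recovered reads, other pseudocounts (0.1 and 5), no filter, other scalings, ribosomal-RNA-like entries left out, a replicate block, and each library left out. The limma fit without the block, with TMM scaling, was tested on simulated data for some of the comparisons. Other steps and alternatives were not tested in that way.

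The replicate numbers come from the labels. The correlation of same-numbered libraries' deviations from their group means was 0.494 to 0.872 in female cortex, 0.607 to 0.752 in female hypothalamus and 0.655 to 0.765 in male hypothalamus, which pairs them. The female cortex dex library of replicate 3, though, correlated at 0.494 with its own number and at 0.492 with another. In male cortex the same-numbered correlation was 0.0208 to 0.391, which does not show a pairing, although each dex library correlated best with its own number. Samples of male cortex are named by the same scheme as those of female cortex.

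The genes and lists were chosen with earlier results of these data known. All genes tested among the 10 are named in each comparison, and other pathway genes where they passed in at least 1 table, at most 5 per list and comparison by smallest p. Cell type marker lists were summed on the common scaling. A marker list and a gene of another list are not reported here. Counting error alone limits genes of few reads.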

Additional observations from a re-analysis of the deposited data

Results flagged for a closer look

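The dexamethasone response of 3 genes differed between the regions by a test of the difference itself, hypothalamus minus cortex, over 24 libraries (limma, n = 13932 genes tested). Bambi differed by 1.59 on the log2 scale: its median same-numbered ratio, dex over EtOH, was 1.27 in hypothalamus and 0.344 in cortex. Smad7 differed by 1.14, with median ratios of 0.801 in hypothalamus and 0.324 in cortex. It was lower with dex in 6 of 6 pairs in each region. Its EtOH level was 1.63 RPM in hypothalamus and 9.08 RPM in cortex. On log2(RPM + 1) a fall of the same ratio reads smaller from the lower level, and the hypothalamus ratios rest on few reads. Id1 differed by 0.91, with median ratios of 1.35 in hypothalamus and 0.807 in cortex. Library makeup also differed between the regions in mt-Rnr2 share and in mural markers, and less sharply in endothelial markers. Their part in these differences was not tested, and region cannot be told apart from the mt-Rnr2 share. Each group held 3 libraries, too few to look for single outlying values.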

How the results depend on the processing

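How many of the genes passed in female cortex depended on the setting: 1 by the stated test and at a pseudocount of 0.1, and 0 with a pseudocount of 5, no filter, ribosomal-RNA-like entries left out, TMM scaling or edgeR. It was 3 with DESeq2, where 13% of 13314 genes passed, against 4.42% by the stated test. Without both libraries of replicate 1 it was 3 (11.5% of all genes), and with the replicate block 5 (38.1%). In the leave-one-out fits the number ranged from 0 to 0 in female cortex, from 4 to 5 in male cortex (6 by the stated test), from 6 to 7 for the vehicle levels, from 3 to 4 for the mean over cortex and from 0 to 1 for the mean over hypothalamus. DESeq2 gave 1 for the mean over hypothalamus, as did the fit without both libraries of female cortex replicate 1.

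The replicate block gave 1 in male hypothalamus, 1 in female hypothalamus, 6 for the region difference, 7 for the mean over cortex and 2 for the mean over hypothalamus. In male cortex, where the numbers are not shown to pair the samples although each library correlated best with its own number, the block had 52% of all genes passing and left the number of the 10 genes at 6. It changed no call in the sex differences, and the vehicle levels have no such fit.

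The vehicle difference of Bmp4, which had not passed, changed sign to 0.0907 with a pseudocount of 0.1, 0.306 in edgeR and 0.460 in DESeq2. That of Bmpr1a changed sign to −0.356 on the deposited scaling, where the median of all genes lay at −0.57. With 1 library left out, signs changed within the range −0.64 to 0.22 for Id2 and −0.98 to 0.0859 for Bmp7 in female cortex, −0.47 to 0.0221 for Bmp4 in vehicle levels, and −0.39 to 0.0280 for Id2 and −0.69 to 0.0652 for Id4 in the mean over cortex. The cause of these changes was not tested. Over all settings that left out no single library, 82 of 97 counts of the genes stayed within 1.5 times, and 339 of 374 single-gene values kept their direction and side of the threshold. Without both libraries of male hypothalamus replicate 2, 0 of 12075 genes passed in male hypothalamus in place of 28, and without both of female hypothalamus replicate 2, 12 of 12187 in female hypothalamus in place of 105. Smad7, Bmp4 and Smad6 had few reads in hypothalamus.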

Other observations

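The TGF-beta and activin arm, which shares SMAD4, SMAD7 and several regulators with the BMP pathway, was counted beside it. In male cortex 1 was higher and 4 were lower of 7 genes tested, where 26.7% and 20.9% of all genes were, with a median change of −0.26 beside 0.04 over all genes. The ligand Tgfb3 averaged 2.99 ± 0.0701 RPM with dex and 6.73 ± 0.607 RPM with EtOH (SD, n = 3 each) and fell by 0.95 ± 0.11 (SE, adjusted p = 6.92e-05, limma). The signal carriers Smad2 (−0.26 ± 0.05) and Smad3 (−0.29 ± 0.08) fell. The type II receptor Tgfbr2 rose, averaging 11.8 ± 0.464 RPM with dex and 8.38 ± 1.04 RPM with EtOH (0.45 ± 0.10). In female cortex 0 of the 6 tested passed in limma, where 4.42% of all genes did, with a median change of −0.21.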
